A study of Mus musculus with 6 samples.

Results

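The genes described here encode the potassium channels that open without the classical voltage-gated subunits: inward rectifiers (Kcnj), tandem-pore K2P channels (Kcnk), and the large family of calcium-, sodium- or pH-activated channels (Kcnma, Kcnmb, Kcnn, Kcnt, Kcnu). Members were the protein-coding genes of the deposited table whose GENCODE symbol starts with one of these stems, which gave 41 of 55416 rows. A further 2 rows with a matching stem, Kcnmb4os1 and Kcnmb4os2, are annotated as antisense RNAs and were left out. The RNA came from primary neurons, which are brain cells kept in culture, of wild-type mice. In 3 libraries the cells had received an adeno-associated virus (AAV) that carries miR-9-3p behind the hsyn (synapsin) promoter, which is active in neurons. In the other 3 libraries they had received a control AAV, named scramble in the titles and treatment labels and AAV-hsyn-mCherry in the protocol. Brain region, strain, age, time after infection and the origin of the replicates are not stated in the sources used here. The p-values set the difference between the groups against the variation among these 6 libraries within their groups, and that variation may therefore be technical.

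Channels of these families set the resting potential, return the membrane to it after firing, and clear potassium from the space around cells. Inward rectifiers pass potassium inward more easily than outward and act as tetramers, some of them gated by G proteins or by ATP. K2P channels carry the background leak. BK and SK channels open when calcium enters during activity, and Slack channels open with intracellular sodium.

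A pair of mature strands come from the miR-9 hairpin, and their sequences are shown because the vector is named for one of them. Capitals mark the seed, bases 2 to 8, with which a microRNA pairs to 3′ untranslated regions (UTRs) of messenger RNAs. The sequences are from RefSeq (GRCm38.p6).
miR-9-3p: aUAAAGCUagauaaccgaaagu
miR-9-5p: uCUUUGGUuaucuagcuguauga

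A match to the miR-9-3p seed was counted where the longest annotated 3′ UTR held AGCTTTA, or GCTTTAA, on the transcript strand, with overlapping hits counted as 1. Among the 24 channel genes that could be tested for expression (below), 7 held such a match, Kcnj2, Kcnj3, Kcnj10, Kcnj11, Kcnj16, Kcnk9 and Kcnt2. This is 29.2% of them, beside 20.5% of the 12194 tested genes with an annotated 3′ UTR, and the channel UTRs had a longer median (2175.5 bases against 1255 bases over all). Of the tested genes with UTRs within 20% of the 4025 bases of Kcnj10, 45.5% held a match, and of those within 20% of the 2195 bases of Kcnj16, 28.3% did. A match says only that these letters are in the annotated UTR. Matches are printed for the genes whose groups did not overlap in expression, from GENCODE M21 transcripts, on the transcript strand, with the matching bases in capitals.
Kcnj10: gcagggcaAGCTTTActaacagcc
Kcnj16: agaccgtaAGCTTTAtaaactgag
Kcnt2, site 1: aactgttgGCTTTAAtatttttca
Kcnt2, site 2: atacttttAGCTTTAttccctaaa
In GRCm38 these windows lie at chr1:172372573-172372596 (plus strand) for Kcnj10, chr11:111026879-111026902 (plus) for Kcnj16, and chr1:140610579-140610602 and chr1:140610896-140610919 (plus) for Kcnt2. The other 5 channel genes whose groups did not overlap, Kcnma1, Kcnk10, Kcnn3, Kcnk1 and Kcnj6, held none. For the miR-9-5p seed (ACCAAAG or CCAAAGA), 7 of the 24 held a match, or 29.2%, beside 23.4% of all tested genes. These were Kcnj2, Kcnj3, Kcnj6, Kcnk3, Kcnk9, Kcnmb2 and Kcnt1. In rat, transcripts of the BK channel have been described as targets of that strand, and the 7730-base annotated UTR of mouse Kcnma1 held a match to neither seed.

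Expression is given as FPKM, fragments per kilobase of exon and scaled to the library total, which can be compared between genes because it is divided by length. The steps between low values gave a depth of 16953258 to 17174920 reads per miR-9-3p AAV library and 16001207 to 17936453 reads per control AAV library. All 6 libraries held transcripts of lung epithelium, which a brain culture should lack. The 15 lung markers summed to 1683 to 7008 FPKM per miR-9-3p AAV library and 4808 to 23447 FPKM per control AAV library, so control AAV library 3, which held the highest sum, stood apart. Leaving it out is given beside the 2 calls. The lung level, the median of 7 surfactant and other alveolar type 2 genes, was 3.08, 1.05 and 1 times the lowest library in miR-9-3p AAV and 2.13, 3.14 and 11.0 times in control AAV. By the ratio of the airway genes Bpifa1 and Scgb1a1, miR-9-3p AAV library 1 and control AAV libraries 2 and 3 formed one lung set and the remaining libraries the other. The cultures carried neuronal RNA as labelled (Tubb3 averaged 712 FPKM under miR-9-3p AAV and 528 FPKM under control AAV) but also glial RNA (Gfap averaged 32.9 and 98.1 FPKM, in the same order of groups).

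Genes that reached 1 FPKM in 3 or more of the libraries were tested with limma on log2(FPKM + 1), and those with a Benjamini-Hochberg adjusted p under 0.05 over all 14229 genes tested are called higher or lower. Of the 41 channel genes, 24 passed this filter and 17 did not. Of the 24, 1 was called higher in miR-9-3p AAV, Kcnma1, and 1 was called lower, Kcnj10. Over all genes tested 3.89% were called higher and 2.4% lower, 6.29% in all, so the channel genes were called about as often as other genes. Log2 fold changes were above 0 in 13 and below 0 in 11 of the 24, with a median of 0.03, beside a median of -0.02 over all genes tested. No overlap between the groups was seen in 8 of the 24, or 33.3%, with 5 above and 3 below the control range. Over all genes tested this held for 34.9%, with 18.2% higher and 16.7% lower. An unadjusted limma p under 0.05 was found for 6 of the 24 and for 26.8% of all genes tested.

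**Figure D1:**
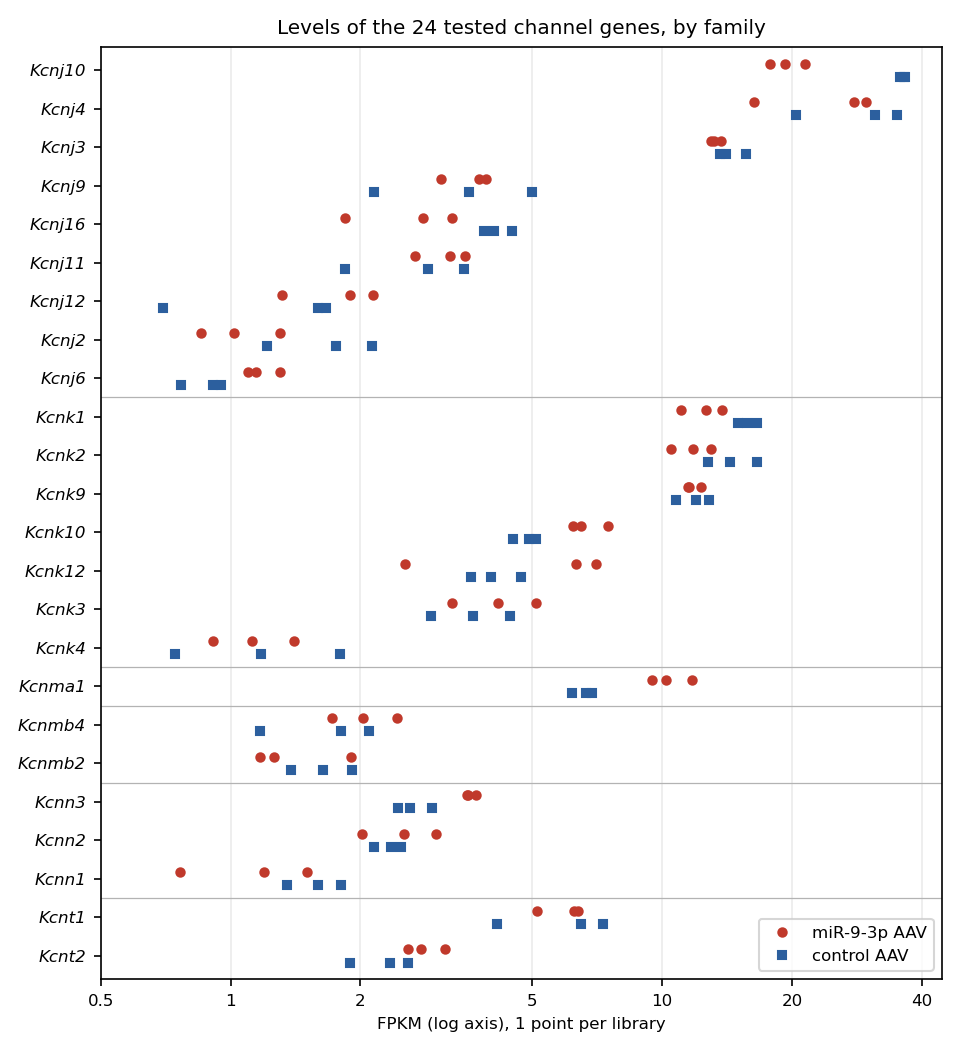
FPKM of the 24 tested channel genes on a log axis, grouped by family and ordered by mean, with 1 point per library (red circles, miR-9-3p AAV; blue squares, control AAV). The Kcnj10 points of miR-9-3p AAV lie between 17.7 and 21.4 FPKM, below the control AAV points at 35.5 to 36.5 FPKM, while the points of most other genes overlap.

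**Figure D2:**
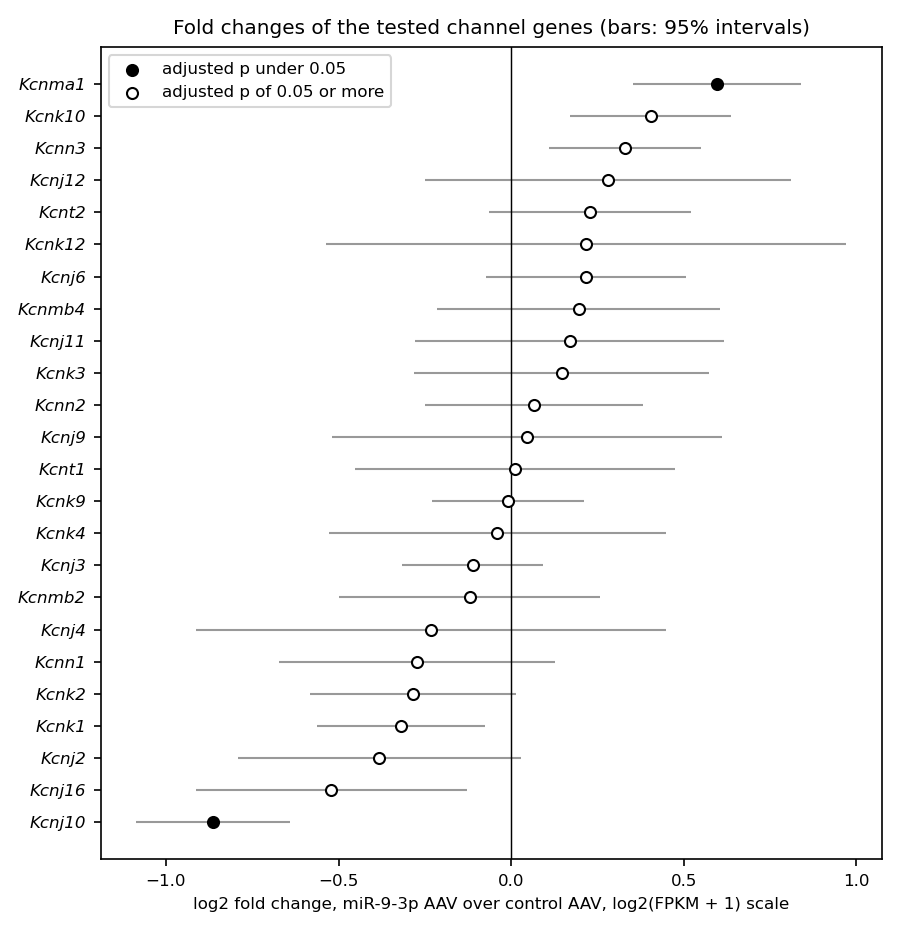
Log2 fold change of miR-9-3p AAV over control AAV for each tested channel gene on the log2(FPKM + 1) scale, with 95% intervals from limma that are not adjusted for the number of genes. Filled points mark the 2 genes with an adjusted p under 0.05, Kcnma1 at 0.60 and Kcnj10 at -0.86.

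Kcnj10 (ENSMUSG00000044708, GRCm38 chromosome 1, 172341210 to 172374085) fell in miR-9-3p AAV. It encodes Kir4.1, the inward rectifier with which astrocytes and oligodendrocytes take up potassium. Kcnj10 stood at 19.3, 21.4 and 17.7 FPKM under miR-9-3p AAV (libraries 1, 2 and 3), against 36.4, 36.5 and 35.5 FPKM under control AAV (libraries 1, 2 and 3). The groups were far apart, and the 3 control libraries lay close together. The means were 19.5 ± 1.85 and 36.1 ± 0.570 FPKM (SD, n = 3 each), a ratio of 0.539. The log2 fold change was -0.86, with a limma SE of 0.09 and an adjusted p of 0.017. Behind these values were 1628 to 1964 reads in miR-9-3p AAV and 3151 to 3542 reads in control AAV. Within the 2 lung sets the log2 differences were -0.87 and -0.87. The call ended when control AAV library 1 or 2, or any single miR-9-3p AAV library, was left out, with limma adjusted p of 0.0641 to 0.107. It also ended with the replicate number as a block (limma adjusted p = 0.25). In each of these fits 0 of all genes tested were called. The log2 fold change stayed between -0.93 and -0.80 over all alternatives run. The call remained when control AAV library 3 was left out (limma adjusted p = 0.0362).

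Kcnj16 encodes Kir5.1, which forms channels with Kir4.1. It stood at 3.25, 2.79 and 1.84 FPKM under miR-9-3p AAV, against 3.86, 4.49 and 4.08 FPKM under control AAV. The groups did not overlap, but the miR-9-3p AAV libraries were spread widely, and the log2 fold change of -0.52 (95% interval -0.91 to -0.13) was not called (limma adjusted p = 0.106). The ratio of Kcnj10 to Kcnj16 was 5.92, 7.69 and 9.63 in miR-9-3p AAV libraries 1, 2 and 3 and 9.44, 8.13 and 8.70 in control AAV libraries 1, 2 and 3. These ratios overlapped between the groups.

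Some astrocyte markers were lower as well. Of 14 tested, 0 were called higher and 2 lower, Gfap (log2 fold change -1.55, limma adjusted p = 0.017) and Acsbg1 (-0.78, limma adjusted p = 0.0498), with 10 log2 fold changes below 0, 4 above 0 and a median of -0.37. The shares called over all genes tested were 3.89% higher and 2.4% lower. The 15 listed markers together stood at 443.7, 507.6 and 468.4 FPKM under miR-9-3p AAV and at 724.8, 681.1 and 617 FPKM under control AAV, and none of them was at 0 throughout. Aqp4, the water channel found with Kir4.1 at astrocyte endfeet, averaged 23.9 FPKM under miR-9-3p AAV and 38.3 FPKM under control AAV (log2 fold change -0.65, limma adjusted p = 0.0582). Of the 14 tested, 8 lay below the whole control range and 2 above it, beside 16.7% and 18.2% of all genes tested. An unadjusted limma p under 0.05 was found for 8 of the 14, beside 26.8% of all genes tested. The 2 above were the glutamate transporter genes Slc1a3 and Slc1a2, with log2 fold changes of 0.13 and 0.21 (limma adjusted p of 0.345 and 0.23). Of 13 tested oligodendrocyte lineage markers 1 was higher and 1 lower, with a median of -0.30 and sums of 242.7 to 350.8 FPKM under miR-9-3p AAV and 354.8 to 559.1 FPKM under control AAV. In bulk RNA, fewer cells of a type and less RNA per cell cannot be told apart, and the part of these cells in the Kcnj10 result was not tested.

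**Figure D3:**
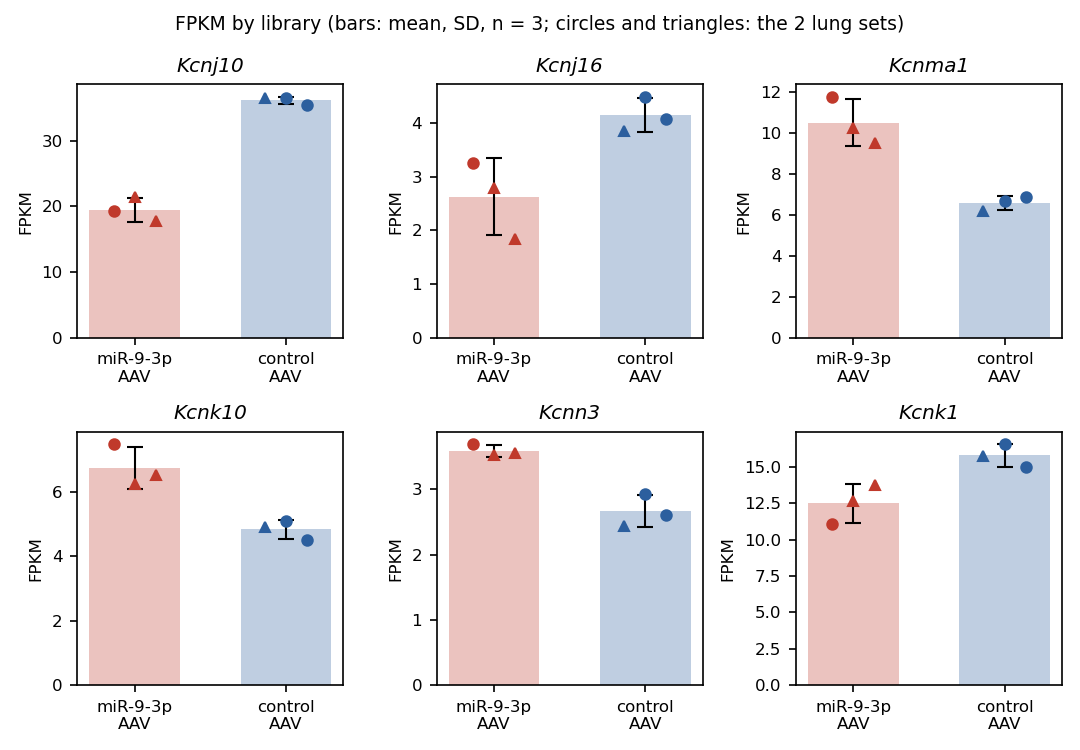
FPKM by library of 6 channel genes, with bars for the mean and SD of 3 libraries, miR-9-3p AAV on the left and control AAV on the right; circles mark the lung set of miR-9-3p AAV library 1 and control AAV libraries 2 and 3, triangles the other lung set. Kcnj10, Kcnj16 and Kcnk1 are lower, and Kcnma1, Kcnk10 and Kcnn3 higher, in every miR-9-3p AAV library than in every control AAV library.

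Among the strong rectifiers of the Kir2 group, which hold neurons and muscle cells near rest, Kcnj4 (Kir2.3) was the most abundant. It stood at 16.3, 29.7 and 27.8 FPKM under miR-9-3p AAV and at 35.0, 31.2 and 20.4 FPKM under control AAV. The groups overlapped, and in each group the library with the most lung RNA was the lowest. The log2 fold change was -0.23 (95% interval -0.91 to 0.45, limma adjusted p = 0.629). In the fit that held the lung level as a covariate, where 29.4% of all genes were called, it was -0.80 (limma adjusted p = 0.00742). With the lung set in its place it was -0.44 (limma adjusted p = 0.145). Without the library of each group with the most lung RNA it was -0.20 (limma adjusted p = 0.209). Kcnj2 (Kir2.1) averaged 1.06 ± 0.228 FPKM under miR-9-3p AAV and 1.70 ± 0.460 FPKM under control AAV, and Kcnj12 (Kir2.2) averaged 1.78 ± 0.425 and 1.32 ± 0.538 FPKM in the same order (SD, n = 3). Neither was called, with log2 fold changes of -0.38 and 0.28 and limma adjusted p of 0.208 and 0.439.

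The G-protein-gated subunits (GIRK), which Gi-coupled receptors open to silence neurons, showed no call. Kcnj3 (GIRK1) was the most abundant of them, at 13.7, 13.0 and 13.2 FPKM under miR-9-3p AAV and 13.6, 15.6 and 14.1 FPKM under control AAV. Its log2 fold change of -0.11 had a 95% interval of -0.31 to 0.09. Kcnj6 (GIRK2) stood at 1.30, 1.10 and 1.14 FPKM under miR-9-3p AAV, against 0.909, 0.767 and 0.952 FPKM under control AAV. The Kcnj6 groups did not overlap, but with 105 to 171 reads per library the log2 fold change of 0.22 was not called (limma adjusted p = 0.288). Kcnj9 (GIRK3) averaged 3.58 ± 0.446 FPKM under miR-9-3p AAV and 3.57 ± 1.41 FPKM under control AAV (SD, n = 3). Kcnj5 (GIRK4), known from the heart, stayed at or below 0.0881 FPKM in all 6 libraries. Of the ATP-sensitive pore subunits, Kcnj11 (Kir6.2) averaged 3.13 ± 0.417 FPKM under miR-9-3p AAV and 2.72 ± 0.823 FPKM under control AAV (log2 fold change 0.17, limma adjusted p = 0.587). Its regulatory partner Abcc8 averaged 1.71 and 2.10 FPKM in these groups (log2 fold change -0.19, limma adjusted p = 0.501), and Abcc9, the partner in vascular cells, did not pass the filter.

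The summed FPKM of the 15 inward rectifier genes was 64.2, 79.0 and 73.1 in miR-9-3p AAV libraries 1, 2 and 3 and 102.5, 100.5 and 86.5 in control AAV libraries 1, 2 and 3. Kcnj10 made up 29.99%, 27.1% and 24.3% of this sum in miR-9-3p AAV and 35.5%, 36.4% and 41.0% in control AAV. Kcnj4 made up 25.4%, 37.5% and 38.0% in miR-9-3p AAV and 34.1%, 31.1% and 23.6% in control AAV. The groups did not overlap in the Kcnj10 share, which rests on the same Kcnj10 values as above and is not a separate result. They overlapped in the Kcnj4 share.

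Of the 14 K2P genes 7 passed the filter and 0 were called by limma or by voom on the recovered reads, while 2 of the 7, Kcnk1 and Kcnk10, had an unadjusted limma p under 0.05, a share near the 26.8% of all genes tested. Kcnk10 (TREK-2, GRCm38 chromosome 12, 98429437 to 98578310), a leak channel opened by stretch, heat and lipids, had the lowest p. It stood at 7.49, 6.23 and 6.50 FPKM under miR-9-3p AAV, against 4.91, 5.10 and 4.52 FPKM under control AAV. Each miR-9-3p AAV library was above each control library, and the log2 fold change was 0.40 (95% interval 0.17 to 0.64, limma adjusted p = 0.0606). Its close relative Kcnk2 (TREK-1) stood on the other side, at 10.5, 13.0 and 11.8 FPKM under miR-9-3p AAV and 16.5, 14.4 and 12.8 FPKM under control AAV. These values overlapped, with a log2 fold change of -0.29 (limma adjusted p = 0.2). The third member of this group, Kcnk4 (TRAAK), averaged 1.15 ± 0.244 FPKM under miR-9-3p AAV and 1.24 ± 0.526 FPKM under control AAV (SD, n = 3).

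Kcnk1 (TWIK-1), which is expressed in neurons and astrocytes, stood at 11.1, 12.7 and 13.7 FPKM under miR-9-3p AAV, against 15.7, 16.6 and 15.03 FPKM under control AAV. The groups did not overlap, and the log2 fold change of -0.32 (95% interval -0.56 to -0.08) was not called (limma adjusted p = 0.109). The acid-sensitive leak channel genes Kcnk9 (TASK-3) and Kcnk3 (TASK-1) differed by less than the spread between replicates. Kcnk9 averaged 11.8 ± 0.440 FPKM under miR-9-3p AAV and 11.9 ± 1.06 FPKM under control AAV (log2 fold change -0.01, 95% interval -0.23 to 0.21), and Kcnk3 averaged 4.17 ± 0.924 and 3.67 ± 0.760 FPKM in the same order. Kcnk12 (THIK-2) stood at 2.54, 6.31 and 7.02 FPKM under miR-9-3p AAV and 4.72, 4.01 and 3.60 FPKM under control AAV. Here miR-9-3p AAV library 1 was the lowest of all 6 libraries and the other two were the highest. The log2 differences of Kcnk12 within the lung sets were -0.44 in the set of miR-9-3p AAV library 1 and 0.42 in the other, so its direction was not shared by the sets. Kcnk12 and Kcnj4 were singled out after their values were seen.

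Kcnma1 (ENSMUSG00000063142, GRCm38 chromosome 14, 23289431 to 24014491, minus strand) rose in miR-9-3p AAV. It encodes the pore of the BK channel, which opens with calcium and depolarization together and shortens action potentials. Kcnma1 stood at 11.8, 10.2 and 9.49 FPKM under miR-9-3p AAV, against 6.18, 6.67 and 6.87 FPKM under control AAV. Every miR-9-3p AAV library was above every control library, and the control libraries lay close together. The means were 10.5 ± 1.16 and 6.57 ± 0.359 FPKM (SD, n = 3 each), a ratio of 1.59. The log2 fold change was 0.60, with a limma SE of 0.10 and an adjusted p of 0.0307. These values rest on 2733 to 3428 reads in miR-9-3p AAV and 1678 to 2071 reads in control AAV. Within the lung sets the log2 differences were 0.71 and 0.60. The call ended when control AAV library 1 or 2, or any single miR-9-3p AAV library, was left out (limma adjusted p of 0.0759 to 0.131). With the replicate number as a block it ended too (limma adjusted p = 0.256). In each of these fits 0 of all genes tested were called. The call remained when control AAV library 3 was left out (limma adjusted p = 0.045). It also ended with no filter on low values (limma adjusted p = 0.0648) and with the exon length trend removed, where the log2 fold change was 0.33 (0.0705). The part of exon length in the Kcnma1 result was not tested.

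The accessory BK beta subunits, which tune calcium sensitivity and inactivation, were far lower and were not called. Kcnmb4, the neuronal form, stood at 2.03, 2.43 and 1.72 FPKM under miR-9-3p AAV and 1.80, 2.10 and 1.17 FPKM under control AAV (log2 fold change 0.20, limma adjusted p = 0.49). Kcnmb2 averaged 1.44 ± 0.397 FPKM under miR-9-3p AAV and 1.64 ± 0.266 FPKM under control AAV. FPKM of Kcnma1 was 2.88, 2.68 and 3.25 times the summed FPKM of the 4 beta subunit genes in miR-9-3p AAV libraries 1, 2 and 3 and 1.88, 1.71 and 1.91 times in control AAV libraries 1, 2 and 3. This ratio rests on the same Kcnma1 values as above and is not a separate result. The beta sums overlapped between the groups, at 2.92 to 4.09 FPKM under miR-9-3p AAV and 3.29 to 3.91 FPKM under control AAV. The antisense genes Kcnmb4os1 and Kcnmb4os2 share 10.7% and 20.8% of the exon bases of Kcnmb4, and no source used here gives the strand setting of the counting. Its level is therefore uncertain. Likewise 4930519K11Rik on the opposite strand overlaps 5.99% of the exon bases of Kcnma1. Such opposite-strand overlaps cover 31.1% of the exon bases of Kcnj3, 12.2% of Kcnk2 and 49.1% of Kcnj13, which was not tested. On the same strand, Catsperz overlaps 13.1% of the exon bases of Kcnk4.

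The small-conductance SK channels open with intracellular calcium and contribute to the after-hyperpolarization that spaces action potentials. Kcnn3 (SK3) stood at 3.70, 3.53 and 3.55 FPKM under miR-9-3p AAV, against 2.45, 2.93 and 2.61 FPKM under control AAV. The groups did not overlap, and the log2 fold change of 0.33 (95% interval 0.11 to 0.55) was not called (limma adjusted p = 0.083). Kcnn2 (SK2) averaged 2.51 ± 0.490 FPKM under miR-9-3p AAV and 2.33 ± 0.169 FPKM under control AAV, and Kcnn1 (SK1) averaged 1.15 ± 0.373 and 1.58 ± 0.224 FPKM in the same order (SD, n = 3). Their log2 fold changes were 0.07 and -0.27, with limma adjusted p of 0.779 and 0.328. The order of the levels was Kcnn3, Kcnn2 and Kcnn1 in each of the 6 libraries except control AAV library 1, where Kcnn2 at 2.49 FPKM was just above Kcnn3 at 2.45 FPKM.

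The sodium-activated genes did not pass the test. Kcnt1 (Slack) stood at 5.12, 6.25 and 6.37 FPKM under miR-9-3p AAV and 7.30, 6.49 and 4.15 FPKM under control AAV, with a log2 fold change of 0.01 (95% interval -0.45 to 0.47). In both groups the library with the most lung RNA was the lowest for Kcnt1. With the lung level fitted, where 29.4% of all genes were called, its direction turned (log2 fold change -0.36, limma adjusted p = 0.038). With the lung set fitted the log2 fold change was -0.10 (limma adjusted p = 0.67). Without the libraries highest in lung RNA it was -0.11 (limma adjusted p = 0.444). Kcnt2 (Slick) stood at 3.14, 2.76 and 2.58 FPKM under miR-9-3p AAV, against 1.89, 2.35 and 2.58 FPKM under control AAV. Its groups met at 2.58 FPKM without crossing, and the log2 fold change was 0.23 (limma adjusted p = 0.27). Together the calcium-, sodium- and pH-activated genes made up 21.9%, 18.9% and 18.6% of the summed FPKM of all 41 channel genes in miR-9-3p AAV libraries 1, 2 and 3 and 13.8%, 14.7% and 14.6% in control AAV libraries 1, 2 and 3. The groups did not overlap in this share, to which the lower Kcnj10 and the higher Kcnma1 both contribute.

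Gene length moved with the fold changes. Across the 24 tested channel genes the log2 fold change had a Spearman rho of 0.27 with summed exon length, the same as the 0.27 across 14097 tested genes of known length; genes of 1 library share its depth and RNA and are not independent replicates. Kcnma1 has the longest exons among the 41 channel genes, 16976 bases, and Kcnn3 and Kcnk10 have 10451 and 8774 bases, beside a median of 4765 bases over the 24. Kcnk9, with 12300 bases, did not follow them. With the trend of each library on exon length removed, the log2 fold change of Kcnk10 was 0.29 and that of Kcnn3 0.18, and neither these nor Kcnma1 were called. Kcnj10, with 5407 bases, kept a log2 fold change of -0.88 (limma adjusted p = 0.0255). Of the 24 this left 0 called higher and 1 lower, where 3.48% of all genes were called, 1.99% higher and 1.5% lower.

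**Figure D4:**
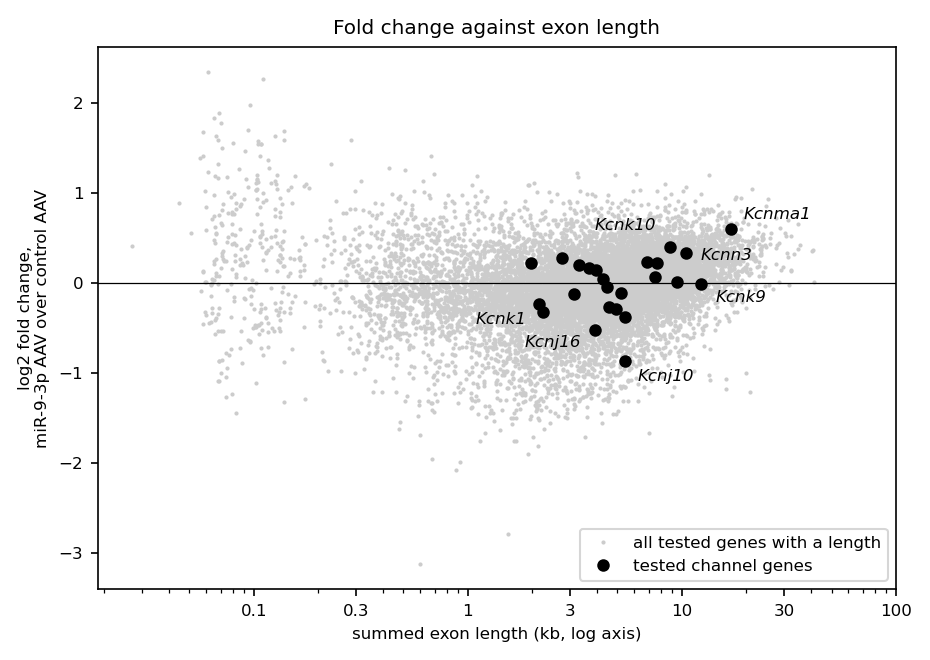
Log2 fold change of miR-9-3p AAV over control AAV against summed exon length on a log axis, for the 24 tested channel genes (black) and all 14097 tested genes of known length (grey). Kcnma1, the longest channel gene, is at 0.60 and Kcnk9, the next longest, at -0.01, while Kcnj10 is lowest at -0.86.

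Adding the lung level to the fit gave 3 channel genes called higher (Kcnma1, Kcnk10 and Kcnt2) and 5 called lower (Kcnj10, Kcnj4, Kcnk1, Kcnk2 and Kcnt1), where 29.4% of all genes were called, 12.8% higher and 16.6% lower. Adding the lung set in its place gave 3 called higher (Kcnma1, Kcnk10 and Kcnn3) and 3 called lower (Kcnj10, Kcnk1 and Kcnk2), where 18.6% of all genes were called, 9.91% higher and 8.74% lower. Kcnj10 and Kcnma1 were called in the same direction under both. Kcnk10, Kcnk1 and Kcnk2 were also called under both, with log2 fold changes of 0.42, -0.44 and -0.49 with the lung level and 0.43, -0.36 and -0.37 with the lung set.

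The 17 channel genes below the filter included members known from other organs. Of these, 16 had a value above 0 in at least 1 library, and Kcnk16 was listed at 0 in all 6. Control AAV library 3, with the most lung RNA, held the highest value for 7 of the 16, where it held the highest value for 41.3% of the 5975 protein-coding genes below the filter with a value above 0. The 7 were Kcnj13, Kcnj14, Kcnj15, Kcnk6, Kcnk7, Kcnmb1 and Kcnn4. Kcnj15 (Kir4.2), an epithelial rectifier, stood at 0.793, 0.486 and 0.289 FPKM under miR-9-3p AAV and 0.832, 0.830 and 2.54 FPKM under control AAV. Kcnmb1, the beta subunit of smooth muscle BK channels, stood at 0.0556, 0.0141 and 0 FPKM under miR-9-3p AAV and 0.0298, 0.106 and 0.430 FPKM under control AAV. Both were highest in that 1 library. Of 14 tested mural, smooth muscle, endothelial and fibroblast markers 0 were called higher and 1 lower, beside 3.89% and 2.4% of all genes tested. All 14 log2 fold changes were below 0, with a median of -0.85. Of the 14, 3 lay below the whole control range, beside 16.7% of all genes tested. The 18 listed together stood at 75.5, 39.6 and 30.2 FPKM under miR-9-3p AAV and 72.5, 85.3 and 252.8 FPKM under control AAV.

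Kcnn4, the intermediate-conductance channel of blood and epithelial cells, stood at 0.0569, 0.0577 and 0.0461 FPKM under miR-9-3p AAV and 0.122, 0.185 and 0.331 FPKM under control AAV, from 4 to 30 reads. Kcnu1 (Slo3), known for its role in sperm, was the low member with the highest level outside control AAV library 3, at 1.23, 1.33 and 0.457 FPKM under miR-9-3p AAV and 0.535, 0.985 and 0.618 FPKM under control AAV. Kcnk13 (THIK-1), which is known from microglia, stood at 0.299, 0.834 and 0.777 FPKM under miR-9-3p AAV and 0.643, 0.591 and 0.435 FPKM under control AAV. Of 11 microglia and macrophage markers 3 could be tested and 0 were called by limma or voom (1 at an unadjusted limma p under 0.05), with sums of 4.83 to 9.44 FPKM under miR-9-3p AAV and 8.57 to 26.6 FPKM under control AAV. Kcnj8 (Kir6.1), of mural cells, had 3 to 26 reads per library. Kcnj1, Kcnk15 and Kcnk18 had at most 4 reads in any library, and Kcnmb3 at most 3. The highest values of the others were 1.03 FPKM for Kcnk6, 0.976 FPKM for Kcnj13 (49.1% of whose exon bases overlap Gigyf2 on the opposite strand), 0.581 FPKM for Kcnj14, 0.504 FPKM for Kcnk7 and 0.491 FPKM for Kcnk5. These 17 genes were not tested.

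**Figure D5:**
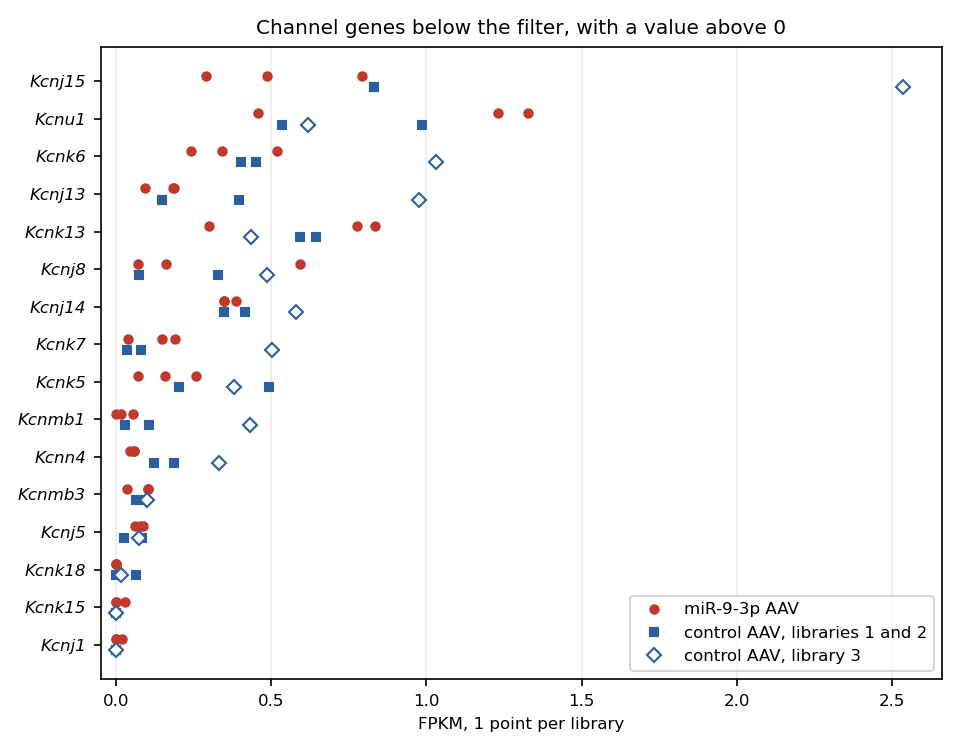
FPKM by library of the 16 channel genes below the filter with a value above 0 (red circles, miR-9-3p AAV; blue squares, control AAV libraries 1 and 2; open diamonds, control AAV library 3). The open diamond is the highest point for 7 of the genes, with Kcnj15 farthest out at 2.54 FPKM.

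Several channel genes lie side by side in the genome, and their levels were compared pair by pair. Kcnj9 and Kcnj10 are 11.9 kb apart on chromosome 1, and Kcnj9 had a log2 fold change of 0.05 (limma adjusted p = 0.92) where Kcnj10 had -0.86. Kcnj16 and Kcnj2 are 38.2 kb apart on chromosome 11, with log2 fold changes of -0.52 and -0.38, neither called. Of the pairs under 1 Mb apart, 7 in all, these were the only ones in which both genes passed the filter.

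Partner genes of the channels were read from the same fit, in lists chosen with earlier results of these data known. Of 22 tested G-protein, RGS and scaffold partners of GIRK channels 2 were called higher and 1 lower, beside 3.89% and 2.4% of all genes tested. Their median log2 fold change was 0.12. Gng2, a G-protein gamma subunit, rose (123 FPKM under miR-9-3p AAV and 75.3 FPKM under control AAV on average, log2 fold change 0.69, limma adjusted p = 0.0223). Rgs6, which speeds the closing of GIRK channels, also rose (3.73 and 1.75 FPKM, log2 fold change 0.79, limma adjusted p = 0.0282), and Gnai2, an inhibitory alpha subunit, fell (59.1 and 88.7 FPKM, log2 fold change -0.58, limma adjusted p = 0.0445). Of 14 tested receptors that couple to GIRK channels 0 were called by limma or voom and 2 had an unadjusted limma p under 0.05, beside 26.8% of all genes tested (median 0.05); the lowest p belonged to the GABA-B subunit gene Gabbr2 (log2 fold change 0.50, limma adjusted p = 0.12) and the serotonin receptor gene Htr1a (0.37, limma adjusted p = 0.135).

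Of 5 tested BK gamma and Slack partners 0 were called by limma or voom and 0 had an unadjusted limma p under 0.05, with a median of 0.02. Lrrc26 averaged 2.99 FPKM under miR-9-3p AAV and 5.70 FPKM under control AAV (log2 fold change -0.63, limma adjusted p = 0.279). Its values overlapped, at 3.33, 2.97 and 2.67 FPKM against 2.94, 4.64 and 9.52 FPKM. The highest was that of control AAV library 3, which held the most lung RNA. Lingo1 had a log2 fold change of 0.43 (limma adjusted p = 0.445). Of 12 tested partners of K2P channels, with a median of -0.05, 1 was called higher and 0 lower, beside 3.89% and 2.4% of all genes tested. That gene was Map2, a dendritic microtubule protein that binds TREK channels (122 FPKM under miR-9-3p AAV and 77.2 FPKM under control AAV, log2 fold change 0.65, limma adjusted p = 0.0374). Of 15 tested neuron markers 1, Dcx, was called higher and 0 lower, beside the same shares of all genes tested. Their median was 0.15, with sums of 1334 to 1652 FPKM under miR-9-3p AAV and 959.5 to 1515 FPKM under control AAV.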

How the data were processed

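RNA was sequenced from cultured neurons, 3 libraries per group. The table deposited by the authors holds FPKM for each library. The submitters' processing notes name HISAT2, Cufflinks 2.2.1 and mm10 without saying what each was used for. The annotation, strand setting and filters used upstream were not stated. FPKM divides by the library total, so an abundant foreign transcript lowers all other values. Symbols, exon lengths and 3′ UTRs came from GENCODE M21 (GRCm38), which matched 52135 of 55416 identifiers. Dividing FPKM by the value of 1 read gave whole reads, within 0.01, for 98.0% to 98.1% of values above 0.

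limma 3.58.1 in R 4.3.3 was fitted to log2(FPKM + 1), which understates changes of low genes, with an intensity trend and no covariates. The closing section gives the alternatives, among them limma's voom on the recovered reads. Channel genes and lists were chosen with earlier results of these data known. Values in every library are given for called genes, for genes with non-overlapping groups and an absolute log2 fold change of at least 0.5, and for the most abundant and the lowest-p gene of each family. Other genes shown by library were added after their values were seen. Partner lists name up to 3 called genes, or the 2 with the lowest p where 0 were called. The list of SK channel partners is not reported here.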

Additional observations from a re-analysis of the deposited data

How the results depend on the processing

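The fit called 554 genes higher and 341 lower, among them 1 channel gene higher and 1 lower. Over 18 alternatives the log2 fold change of Kcnj10 ranged from -0.93 to -0.80 (limma adjusted p 0.00686 to 0.25, called in 12) and that of Kcnma1 from 0.33 to 0.72 (0.00723 to 0.256, called in 10). Same-numbered libraries did not deviate together (r of -0.65, 0.11 and -0.54). With 3 libraries per group and unequal lung RNA, this cannot tell whether the numbers mark paired libraries. With a replicate block limma called 0 genes higher and 0 lower (2213 at an unadjusted p under 0.05), 0 channel genes higher and 0 lower. Without a filter 109 genes were called higher and 67 lower, and 0 channel genes higher, with more genes tested. Leaving out 1 library gave 0 to 459 genes higher and 0 to 287 lower (2739 to 4016 at an unadjusted p under 0.05), and 0 to 1 channel genes each way; calls remained only without control AAV library 3. The lung level as covariate gave 1822 higher and 2364 lower, with 3 and 5 channel genes, and the lung set 1410 and 1243, with 3 and 3. Without the library of each group with the most lung RNA, 853 genes were lower, and 2 channel genes higher, Kcnma1 and Kcnk12 (0.52). Without the exon length trend 280 were higher and 211 lower, and 0 channel genes higher. With a filter of 5 FPKM 4 channel genes, in place of 8, had groups that did not overlap, with fewer genes tested. The sign of Kcnt1 turned with the lung level (-0.36), the lung set (-0.10), without the libraries highest in lung RNA (-0.11), with voom on recovered reads (-0.00055), without the length trend (-0.12) and on leaving out control AAV library 3 (-0.19), or library 2 (-0.03) or 3 (-0.04) of miR-9-3p AAV, in a range of -0.19 to 0.15 over single omissions. Kcnk12 turned with the lung level (-0.27), the lung set (-0.0099) and on leaving out library 3 of miR-9-3p AAV (-0.0014, in a range of -0.0014 to 0.59). Kcnj4 turned on leaving out library 1 of miR-9-3p AAV (0.027, in a range of -0.46 to 0.027). Except where named, the cause was not tested. Most channel genes below the filter had under about 100 reads per library, and the part of depth was not tested.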
